A study of Danio rerio with 14 samples.

Results

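The windows described here are stretches of 1 Mb of the zebrafish (Danio rerio) genome in which Rad21 peaks were many and CTCF peaks few relative to them at the end of gastrulation. The windows were chosen by measured values, namely the numbers of peaks in the 10 hpf lists of Rad21 and CTCF. A window was taken when it held 20 or more centres of Rad21 peaks at 10 hours post fertilisation (hpf) and when its CTCF peaks at 10 hpf numbered at most 0.5 times its Rad21 peaks. This rule found 138 of the 1369 windows on chromosomes 1 to 25, or 10.1%, and with them 3454 of the 18075 Rad21 peaks and 1240 of the 14079 CTCF peaks of 10 hpf. The 1073 Rad21 peaks that lie in the same windows at 4.5 hpf, of 7144 in all, were not used to choose them. The peaks came from chromatin immunoprecipitation followed by sequencing (ChIP-seq) of pooled whole embryos of the AB/PS strain, with custom-made antibodies. The groups used are Rad21 at 10 hpf, CTCF at 10 hpf, Rad21 at 4.5 hpf and Rad21 at 2.5 hpf, each with 2 libraries from separate collections, and the antibody-free inputs of each stage, also 2 each. A collection held 1000 embryos at the later stages and 2000 at 2.5 hpf, and the labels give no treatment or mutation for any group. Each stage and antibody is represented by a single peak list, so no value below has a spread between replicates and no difference was tested.

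Rad21 is a subunit of cohesin, the ring-shaped complex that holds sister chromatids together and that draws chromatin into loops. CTCF is a zinc finger protein that binds a long DNA motif and at which cohesin is known to halt, so that both often share sites. Cohesin is also found at enhancers and promoters without CTCF, where it is loaded and moves along the chromatin. In zebrafish, transcription from the zygotic genome starts during the blastula stages, and gastrulation then forms the germ layers and the body axis.

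The name of the windows holds for Rad21 and in part for CTCF. The 138 windows held 25.03 Rad21 peaks per Mb at 10 hpf (exact 95% Poisson interval 24.2 to 25.9), against 13.3 (13.1 to 13.5) over all 1369 windows. They held 8.99 CTCF peaks per Mb (8.49 to 9.50), against 10.5 (10.4 to 10.7) in the 1231 other windows, a ratio of 0.853 (0.804 to 0.904). CTCF peaks were thus few beside the Rad21 peaks of these windows but only somewhat less dense than in the rest of the genome. A second set, the 117 windows that also held 20 or more Rad21 peaks but proportionally more CTCF, had 22.6 Rad21 peaks and 15.0 CTCF peaks per Mb. These numbers were what the rule used, so they describe the choice and support nothing. All intervals cover counting error only and take peaks as independent, which neighbouring peaks need not be. A higher number of peaks may mean binding in more of the embryo's cells or more binding per cell, which cannot be told apart in whole embryos. Per the file headers, 3.38% of the tags lay in peaks for Rad21 at 10 hpf and 1.03% for CTCF. The part of this difference in the ratio of CTCF to Rad21 peaks was not tested.

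**Figure D1:**
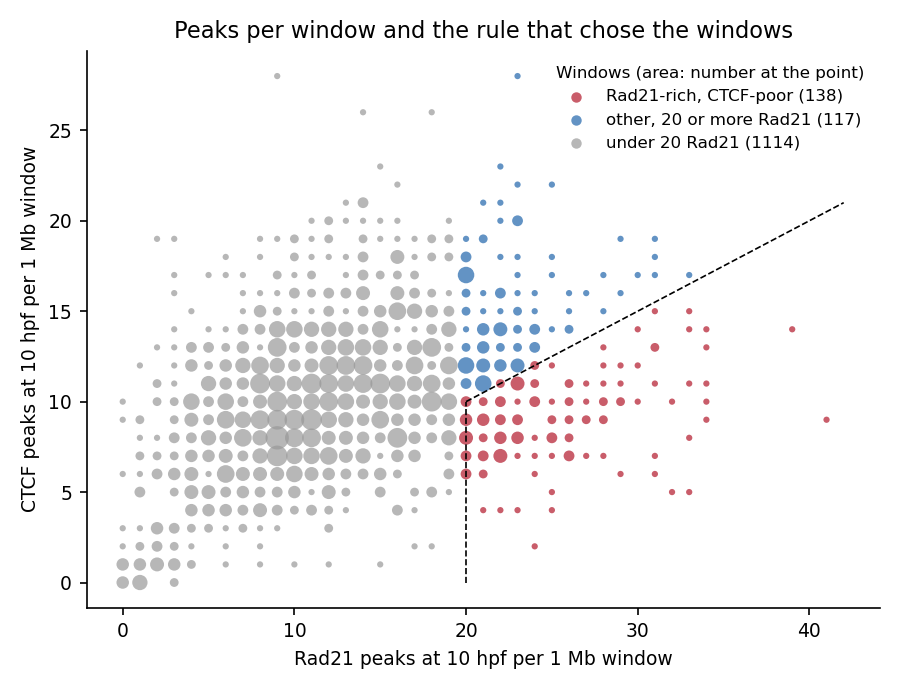
Number of Rad21 peaks (x axis) and CTCF peaks (y axis) at 10 hpf in each of the 1369 windows, with the area of a point showing how many windows share it and dashed lines showing the rule. The 138 chosen windows lie at or right of 20 Rad21 peaks and on or below the sloping line, and reach 41 Rad21 peaks.

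Within the windows the number of Rad21 peaks at 10 hpf had a lowest value of 20, a median of 24 and a highest of 41, and CTCF peaks had 2, 9 and 15. Windows just inside and just outside the limits had overlapping values. The 18 chosen windows with exactly 20 Rad21 peaks held 6 to 10 CTCF peaks and 3 to 11 Rad21 peaks of 4.5 hpf. Another 16 windows met the CTCF limit but had 19 Rad21 peaks, and they held 5 to 9 and 3 to 11. The CTCF limit caps the CTCF counts of both groups, so their overlap in CTCF is a description. At the other limit, the 28 windows with a CTCF to Rad21 ratio from 0.45 to 0.5 had a median of 9 Rad21 peaks at 4.5 hpf, and the 27 windows with a ratio above 0.5 and up to 0.55 had a median of 7.

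The window with most Rad21 was that of chromosome 13 from 30 to 31 Mb on the Zv9 assembly, which held 41 Rad21 and 9 CTCF peaks at 10 hpf and 6 Rad21 peaks at 4.5 hpf. Of its 9 CTCF peaks 8 overlapped a 10 hpf Rad21 peak, against 41.0% of the CTCF peaks in the chosen windows and 24.1% of all. That overlap depends on the Rad21 count by which the window was picked, so it is a description. Chromosome 5 from 34 to 35 Mb followed with 39 Rad21 and 14 CTCF peaks. With chromosome 20 from 23 Mb it also had most Rad21 at 4.5 hpf, 18 peaks. On chromosome 5, 9 of the 18 overlapped a 10 hpf peak, as did 41.2% of all 4.5 hpf peaks. The next 5 windows had 34 Rad21 peaks each at 10 hpf. These were chromosome 7 from 27 Mb, chromosome 12 from 28 Mb and from 36 Mb, and chromosome 23 from 22 Mb and from 23 Mb, and their 4.5 hpf peaks numbered 12, 12, 7, 8 and 10 in this order. The stages did not rank these windows alike, and the one with most Rad21 peaks at 10 hpf had fewer at 4.5 hpf than the other 6. These windows were picked by their 10 hpf counts, which differ little. Between the Rad21 counts of both stages, Spearman rho was 0.245 over the 138 windows and 0.600 over all 1369.

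The lowest ratio of CTCF to Rad21 was that of chromosome 7 from 54 Mb, at 0.0833, with 24 Rad21 and 2 CTCF peaks. Chromosome 1 from 46 Mb held 33 Rad21 and 5 CTCF peaks, chromosome 23 from 28 Mb 32 and 5, chromosome 17 from 27 Mb 25 and 4, and chromosome 16 from 26 Mb 23 and 4. Rad21 at 4.5 hpf was also present in each of them, with 8, 7, 14, 7 and 9 peaks in the order given.

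The windows were gathered in the middle of the chromosomes. Of the 138, 72 or 52.2% had their centre between 40% and 60% of the chromosome's length, against 29.1% of the 117 other Rad21-rich windows and 15.8% of all other windows (19.5% of the 1369 windows). In the first 10% of the chromosomes' length 2 of 136 windows were chosen, and in the last 10% 1 of 146. The other Rad21-rich windows also had their largest number, 20, between 40% and 50% of the length, but 18 of them lay in the first 10% and 3 in the last. Windows at the end of a chromosome were cut at its last peak and fell short of 1 Mb, so that the 1369 windows spanned 1356 Mb. Such windows had less room for 20 Rad21 peaks, which bears on the counts of the last 10%. Over all windows, Rad21 stood at 17.0 peaks per Mb between 40% and 60% of the length and at 12.4 per Mb elsewhere, while CTCF stood at 10.3 and 10.4 per Mb. The position was not used by the rule, but the density of Rad21 that moves with it was. The part of position in the choice was not tested.

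**Figure D2:**
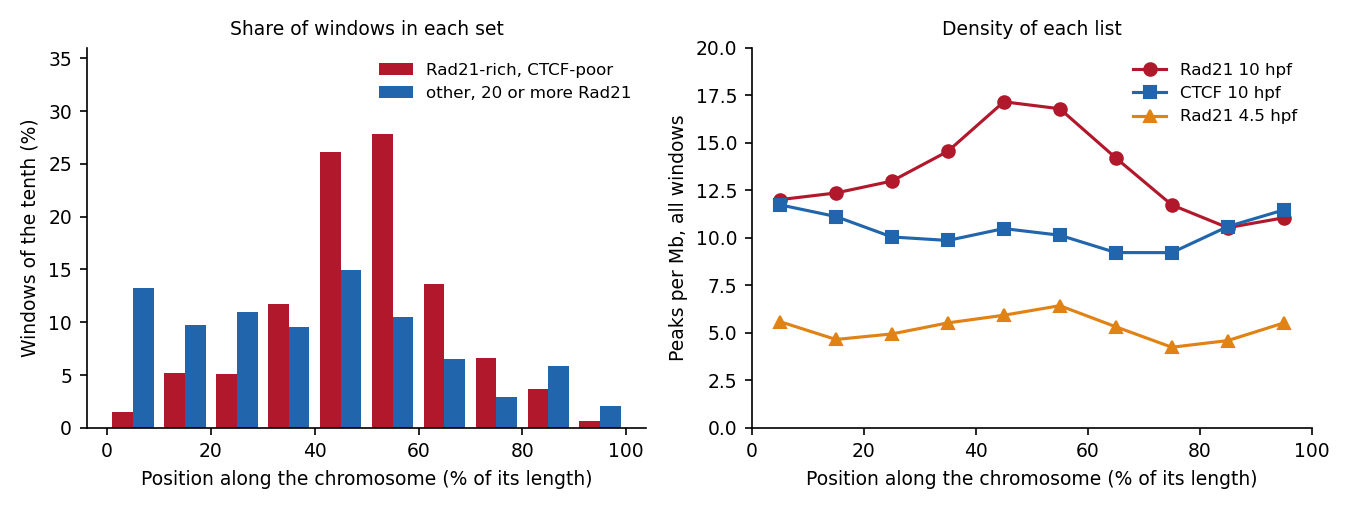
Left, share of the windows in each 10% of chromosome length (x axis) that belong to the Rad21-rich, CTCF-poor windows or to the other windows with 20 or more Rad21 peaks. Right, density of each peak list in peaks per Mb over all windows. The chosen windows reach 27.8% of all windows just past the middle, where Rad21 at 10 hpf is also dense and CTCF is not.

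Many of the windows were neighbours. They formed 89 runs, of which 56 were single windows, and 82 of the 138 windows lay next to another one, against 43 of the 117 other Rad21-rich windows. Such counts also depend on the size of a set and on its gathering in the middle of the chromosomes. The part of either was not tested. The longest runs spanned 5 windows. One covered chromosome 13 from 29 to 34 Mb and the other chromosome 23 from 21 to 26 Mb, and by coincidence each summed to 145 Rad21 and 52 CTCF peaks at 10 hpf and 39 Rad21 peaks at 4.5 hpf. A run of 4 windows lay on chromosome 20 from 20 to 24 Mb, with 94 Rad21 and 34 CTCF peaks. Chromosome 20 held 12 of its 56 windows in the set and chromosome 7 held 16 of 78, while chromosomes 10 and 25 held 0 of 47 and 0 of 39. Rad21 stood at 12.6 and 13.7 peaks per Mb on those 2 chromosomes, against 13.3 over the genome. CTCF stood at 11.4 and 11.2 per Mb there, against 10.4. They held 6 and 5 of the other Rad21-rich windows. The part of either density in the lack of chosen windows was not tested.

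Rad21 was already denser in these windows at 4.5 hpf, in libraries that had no part in the rule. The number of 4.5 hpf peaks per window had a lowest value of 0, a median of 7.5 and a highest of 18 in the 138 windows, against 0, 4 and 19 in all other windows. Their density was 7.78 per Mb (7.32 to 8.25) in the chosen windows, against 4.98 (4.86 to 5.11) elsewhere, a ratio of 1.56 (1.46 to 1.67). Of the 138 windows 28 held 11 or more, which is at least 2 times the mean of 5.22, against 72 of the 1231 others (7.30% of all windows). The ranges overlapped widely, and 16 of the 138 windows held 3 or fewer, against 449 of the 1231 others (34.0% of all windows).

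No such difference was found against the 117 other Rad21-rich windows, whose 10 hpf Rad21 density was a little lower (22.6 per Mb). They had 8.17 Rad21 peaks per Mb at 4.5 hpf (7.66 to 8.71), and the ratio was 0.952 (0.871 to 1.04). The count of windows with 11 or more was also close, at 28 of 138 against 24 of 117. Among windows between 40% and 60% of the chromosome's length, the chosen ones held 7.85 per Mb at 4.5 hpf. There the other Rad21-rich windows held 8 per Mb, and all windows that were not chosen held 5.56. Per Rad21 peak of 10 hpf there were 0.311 peaks of 4.5 hpf in the chosen windows, 0.362 in the other Rad21-rich windows and 0.415 in all other windows. Over the whole genome this quotient declined with density, and it was 0.703 in windows with 0 to 4 Rad21 peaks at 10 hpf and 0.312 in windows with 25 to 41. The quotient divides by the 10 hpf count, which the rule set and which also defines these density classes, so it is a description. Per the file headers, 3.38% of the tags lay in peaks at 10 hpf and 1.03% at 4.5 hpf, from 13260105 and 14255160 tags, and the part of this difference in the quotients was not tested.

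**Figure D3:**
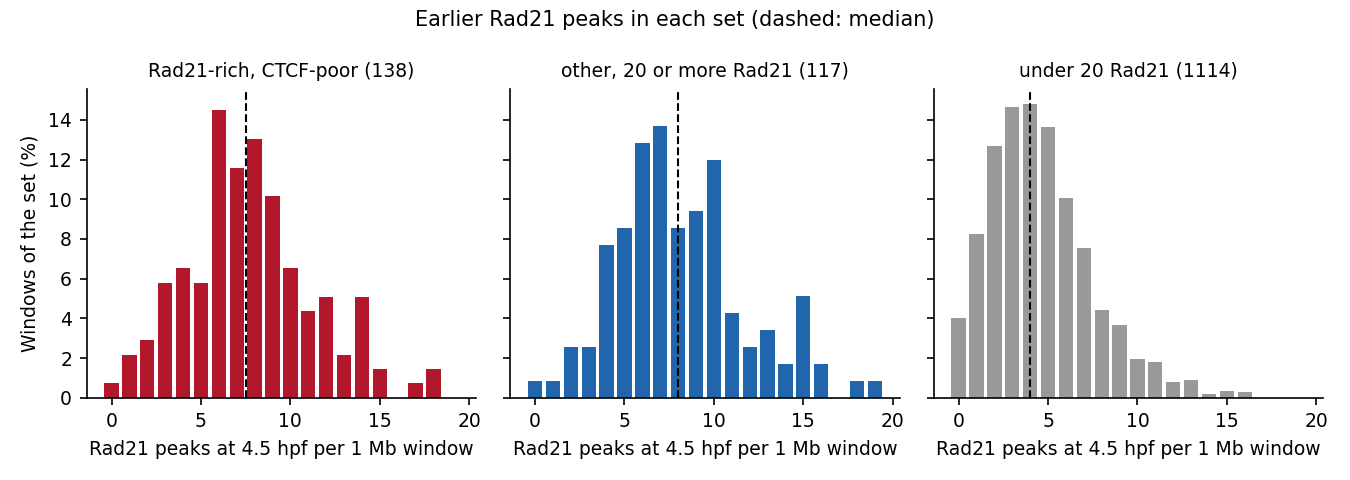
Share of windows (y axis, %) by their number of Rad21 peaks at 4.5 hpf (x axis) in the Rad21-rich, CTCF-poor windows, the other windows with 20 or more Rad21 peaks at 10 hpf, and the windows with fewer. The medians are 7.5, 8 and 4.

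Windows that were rich at 10 hpf but nearly empty at 4.5 hpf were picked after their values had been seen. Chromosome 20 from 22 Mb held 28 Rad21 and 9 CTCF peaks at 10 hpf and 0 Rad21 peaks at 4.5 hpf, although the next window on that chromosome, from 23 Mb, held 23 Rad21 peaks at 10 hpf and 18 at 4.5 hpf. A single peak at 4.5 hpf was found from 35 Mb on chromosome 12, where 10 hpf gave 21 Rad21 peaks, from 13 Mb on chromosome 13, where it gave 23, and from 17 Mb on chromosome 22, where it gave 21. At the other end, chromosome 14 from 33 Mb held 31 Rad21 peaks at 10 hpf and 17 at 4.5 hpf, chromosome 13 from 36 Mb 22 and 15, and chromosome 15 from 28 Mb 32 and 15. In the last of these 11 of the 15 peaks overlapped a 10 hpf peak, against 3 of 15 in the window on chromosome 13 (41.2% of all 4.5 hpf peaks).

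Site by site, the 10 hpf Rad21 peaks of these windows lay at a 4.5 hpf Rad21 peak somewhat less often than those elsewhere. An overlap of 1 bp or more was taken as sharing. Of the 3454 peaks 499 were shared with 4.5 hpf, or 14.4% (exact 95% binomial interval 13.3 to 15.7), against 18.1% (16.6 to 19.6) in the other Rad21-rich windows and 16.7% (16.1 to 17.4) in all other windows (16.3% of the whole list). Conversely, 46.5% (43.5 to 49.5) of the 1073 peaks of 4.5 hpf lay at a 10 hpf peak, against 49.9% (46.7 to 53.2) and 40.3% (39.1 to 41.6) in the same order (41.2% of the whole list). Both shares depend on how many 10 hpf peaks a window holds, and the first also on how many of them lie at CTCF, which the rule used, so they are descriptions.

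The lower share was also found at the head of the list. The deposited order of peaks was used as a rank, since the score of these lists does not vary, and the sources used here do not state the basis of that order. Among the first 10% of the 10 hpf Rad21 list, 47.3% (42.4 to 52.2) of the 421 peaks in the chosen windows lay at a 4.5 hpf peak, against 58.9% (56.3 to 61.6) of the 1386 in all other windows (56.2% of all). In the other Rad21-rich windows it was 55.7% (50.2 to 61.1) of 334, an interval that overlaps that of the chosen windows. Compared with all other windows, the share was lower in the chosen windows in each 10% of the list except the last, where it was 2.79% against 2.50%. Their Rad21 peaks stood slightly higher in the list than the rest, with a median place at 45.7% of the list (95% interval 44.2 to 46.9) against 51.1%, and the other Rad21-rich windows had 45.7% too. These shares, too, are taken over the 10 hpf peaks that the rule required to be many.

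**Figure D4:**
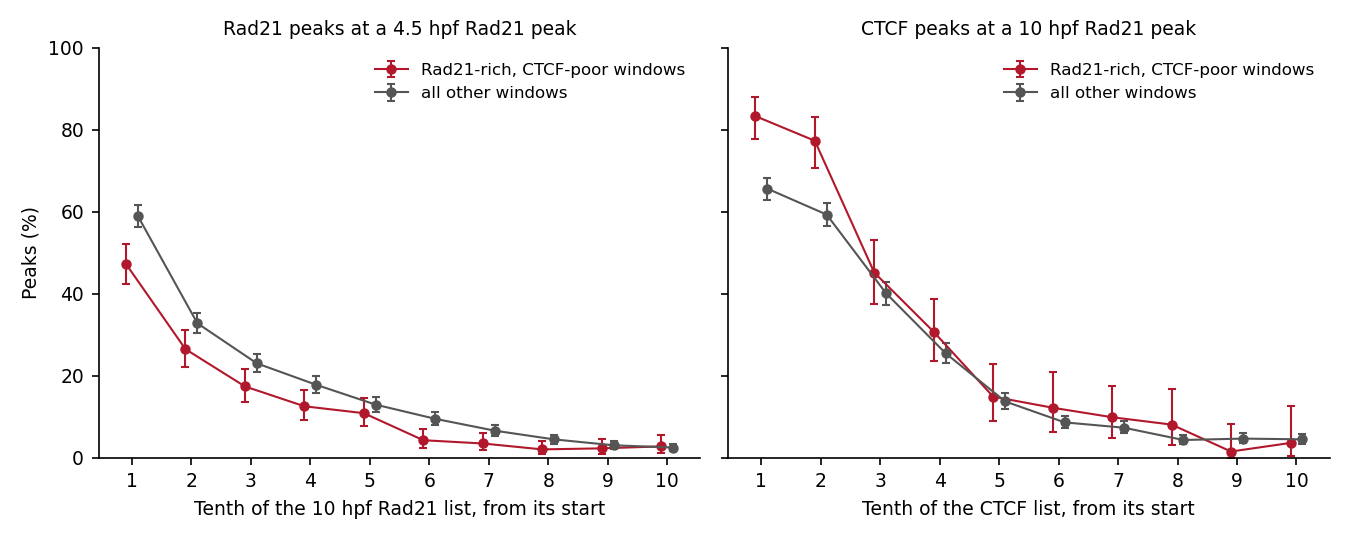
Left, share of 10 hpf Rad21 peaks at a 4.5 hpf Rad21 peak by place in the list, and right, share of CTCF peaks at a 10 hpf Rad21 peak by place in the CTCF list, with exact 95% intervals as bars. Peaks of the Rad21-rich, CTCF-poor windows lie below those of all other windows on the left at the head of the list, and above them on the right in the first 20%.

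Most Rad21 peaks of the windows, as of the whole list, lay at neither an earlier Rad21 peak nor a CTCF peak. The rule limits CTCF per Rad21 peak and so bears on these classes, which are given as a description. Those at neither were 2559 of 3454, or 74.1% (72.6 to 75.5), against 65.2% in the other Rad21-rich windows and 67.9% in all other windows (69.0% of the whole list). Sites at CTCF but not at 4.5 hpf Rad21 numbered 396, sites at 4.5 hpf Rad21 but not at CTCF 386, and sites at both 113, where the same classes made up 14.7%, 12.2% and 4.11% of the whole list. In the chosen windows, sites at both had a median place at 12.3% of the list and those at 4.5 hpf Rad21 alone at 14.7%. Those at CTCF alone stood at 31.1% and those at neither at 54.6%. Elsewhere sites at both stood lower than those at 4.5 hpf Rad21 alone. The medians were 17.3% and 14.1% in the other Rad21-rich windows, and 20.4% and 17.9% in all other windows. No interval was computed for these medians. Among the 2945 peaks without CTCF, 13.1% (11.9 to 14.4) lay at a 4.5 hpf peak, against 15.5% (14.8 to 16.2) of those elsewhere (15.0% of all). Among the 509 at CTCF the share was 22.2% (18.7 to 26.1), against 21.8% (20.3 to 23.4) elsewhere (21.9% of all).

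The CTCF peaks of the windows were few for their Rad21 but stood high in their list and often carried Rad21. Their median place was 32.0% of the CTCF list (29.3 to 33.9), against 38.7% (36.6 to 41.2) in the other Rad21-rich windows and 51.8% (50.9 to 52.7) in all other windows. Of the 1240 peaks 228, or 18.4% (16.3 to 20.7), were among the first 10% of the list, against 16.9% and 9.18% (9.99% of all), and 55, or 4.44%, among the last 10%, against 5.65% and 10.5% (10.0% of all). Over the whole CTCF list, 68.5% of the first 10% lay at a 10 hpf Rad21 peak, against 4.47% of the last 10%. The rule asked for many 10 hpf Rad21 peaks, so the place is not independent of it and is given as a description. The place moved with position as well. Between 40% and 60% of the chromosome's length the median was 30.7% in the chosen windows, 31.9% in the other Rad21-rich windows and 43.8% in all other windows, and outside that span it was 34.3%, 41.1% and 53.6%.

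Of these 1240 CTCF peaks, 509 overlapped a 10 hpf Rad21 peak, or 41.0% (38.3 to 43.8), against 32.8% (30.6 to 35.1) in the other Rad21-rich windows and 22.4% (21.7 to 23.2) in all other windows (24.1% of all). Among the first 10% of the CTCF list the share was 83.3% (77.8 to 87.9) of 228, against 69.4% (63.8 to 74.6) and 65.6% (62.9 to 68.4) (68.5% of all). In the next 10% it was 77.3% (70.8 to 83.0), against 64.3% (57.6 to 70.6) and 59.3% (56.5 to 62.1) (61.8% of all). From the third 10% on the intervals of the chosen windows and of all other windows overlapped. Seen from Rad21, 14.7% (13.6 to 16.0) of its peaks in the windows lay at CTCF, against 21.8% and 19.7% (18.8% of all). Both shares use the counts that the rule set, so they are descriptions. The earlier Rad21 list, which the rule did not use, gave 9.92% (8.31 to 11.7) of the CTCF peaks at a 4.5 hpf Rad21 site, against 8.78% (7.50 to 10.2) in the other Rad21-rich windows and 5.69% (5.29 to 6.10) in all other windows (6.06% of all). At 4.5 hpf 11.5% (9.62 to 13.5) of the Rad21 peaks in the windows lay at a later CTCF peak, against 16.2% (13.9 to 18.7) and 12.02% (11.2 to 12.9) (11.9% of all). These 2 shares still use the CTCF peaks that the rule limited. Rad21 at 4.5 hpf was also denser here than in all other windows, by a ratio of 1.56, so both shares are descriptions.

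The first CTCF peaks of the windows are listed here. The first 5 were at 47133172 to 47133336 on chromosome 1, 12th in the list, and 50355999 to 50356163 on chromosome 6, 22nd. They went on with 29109716 to 29109880 on chromosome 8, 35th, 24669709 to 24669873 on chromosome 17, 54th, and 33827461 to 33827625 on chromosome 14, 61st. All 5 overlapped a 10 hpf Rad21 peak, with centres 1 to 46 bp apart. In the first 10% of the whole CTCF list 68.5% did so. Those on chromosomes 6, 8 and 14 also overlapped a Rad21 peak at 4.5 hpf, where 6.06% of all CTCF peaks did so. That share is over the whole list, while these 5 peaks stand at its head, so the ranks are unlike.

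Between CTCF peaks the windows held long stretches filled with Rad21. The median distance from a Rad21 peak to the nearest CTCF peak was 31.2 kb (quartiles 7.81 and 67.9 kb), against 15.0 kb in the other Rad21-rich windows and 20.4 kb in all other windows. Peaks more than 100 kb from CTCF made up 13.4% (12.3 to 14.6) of the 3454, against 3.46% and 9.14% (9.95% of all). From the side of CTCF the distance was short, with a median of 4.11 kb to the nearest Rad21 peak, against 7.35 kb and 18.6 kb. Of the 1255 stretches between neighbouring CTCF peaks that are centred in the windows, 53 or 4.22% held 10 or more Rad21 peaks, against 8 of 1732 in the other Rad21-rich windows and 23 of 11067 in the remaining windows (0.598% of all). These distances follow from the counts in the rule and are given as descriptions.

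**Figure D5:**
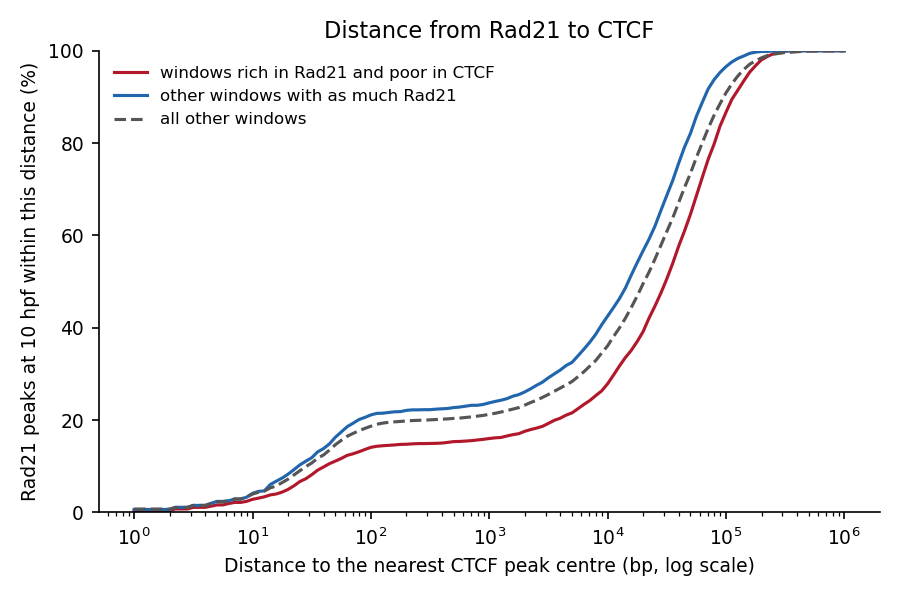
Cumulative share of 10 hpf Rad21 peaks (y axis, %) within a given distance of the nearest CTCF peak centre (x axis, bp, log scale). The curve of the Rad21-rich, CTCF-poor windows lies below the others up to about 200 kb, with a median of 31.2 kb, and between 100 bp and 1000 bp its share moves only between 14.1% and 16.0%.

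Of the 10 stretches with most Rad21 peaks in the genome, 9 were centred in these windows, with ties ordered by length. The exception, on chromosome 24, held 16 Rad21 peaks of 10 hpf. Of all 14054 stretches 1255 were centred in these windows. The rule asked for many Rad21 and few CTCF peaks, so the count of 9 is a description. On chromosome 6, 50396303 to 50806888, 20 Rad21 peaks of 10 hpf and 6 of 4.5 hpf lay between neighbouring CTCF peaks, and chromosome 19, 26260927 to 26629197, held the same numbers. Chromosome 1, 46428743 to 47133171, held 19 peaks of 10 hpf over 705 kb and 2 of 4.5 hpf, and its right border was the CTCF peak listed 12th. Chromosome 23, 27981325 to 28499228, held 18 and 9. Chromosome 14, 33527284 to 33827460, held 17 and 11, and its right border was the CTCF peak listed 61st. Across these 5 stretches the 4.5 hpf peaks varied from 2 to 11. The 10 hpf peaks varied from 17 to 20, a range set by the choice of the fullest stretches. That CTCF peaks named above border a pair of them was seen after the values.

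Rad21 peaks were also close to each other. Another 10 hpf Rad21 peak lay within 10 kb for 1487 of the 3454, or 43.1% (41.4 to 44.7), against 39.3% (37.5 to 41.2) in the other Rad21-rich windows and 28.4% (27.7 to 29.2) in all other windows (31.2% of all). Part of this follows from their number, which the rule set. The 4.5 hpf peaks, which it did not set, had a neighbour of their own list within 10 kb in 20.0% (17.7 to 22.6) of cases, against 20.3% (17.7 to 22.9) and 16.4% (15.4 to 17.3) (16.9% of all). CTCF peaks had one in 17.1% (15.0 to 19.3), against 25.3% and 19.7% (19.4% of all). The genome held 29 separate stretches of up to 100 kb with 9 or more Rad21 peaks, of which 17 lay inside the windows and 8 inside the other Rad21-rich windows. These sets held 19.1% and 14.6% of all 10 hpf Rad21 peaks. With 8 or more peaks the counts were 35 and 16 of 65, and with 10 or more they were 4 and 4 of 10. The rule asked for dense Rad21, so these counts are descriptions. The fullest stretch, chromosome 2, 31019258 to 31112634, held 13 Rad21 peaks and 3 CTCF peaks at 10 hpf and 2 Rad21 peaks at 4.5 hpf. On chromosome 14, 33725495 to 33804797, 11 Rad21 peaks lay in 79.3 kb with 0 CTCF peaks. On chromosome 16, 49270075 to 49334588, 9 lay in 64.5 kb with 0 CTCF peaks and 0 Rad21 peaks of 4.5 hpf.

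The first 10 peaks of the 10 hpf Rad21 list that fall in the windows are given by position. They were found on chromosome 7 at 27753129 to 27753317 (place 3), 44616794 to 44616982 (place 38) and 25371767 to 25371955 (place 47), on chromosome 20 at 28868503 to 28868691 (place 4) and 4091653 to 4091841 (place 22), and on chromosome 15 at 28905760 to 28905948 (place 24). The others were on chromosome 11 at 19032621 to 19032809 (place 41), chromosome 8 at 27262949 to 27263137 (place 51), chromosome 18 at 17383389 to 17383577 (place 55) and chromosome 5 at 34156758 to 34156946 (place 71). All 10 overlapped a 4.5 hpf Rad21 peak, where 56.2% of the first 10% of the list did so. That share fell with place, to 31.4% in the second 10%, and these 10 stand at the very start, so the ranks are unlike. Over the first 10% the share in the chosen windows was 47.3%. The peak on chromosome 5 alone overlapped a CTCF peak, where 25.5% of the first 10% of the list did so. The distance from the others to the nearest CTCF peak was between 1.67 and 143 kb. The first 5 peaks of the 4.5 hpf list in the windows were the earlier counterparts of 5 of these, at places 6 and 31 on chromosome 7, 8 and 37 on chromosome 20 and 14 on chromosome 11. At the very head the lists differed. The windows held 11 of the first 100 Rad21 peaks of 10 hpf against 19.1% of the whole list, 15 of the first 100 CTCF peaks against 8.81%, and 9 of the first 100 Rad21 peaks of 4.5 hpf against 15.02%. Of the first 1000 peaks the windows held 225 of Rad21 at 10 hpf, 157 of CTCF and 172 of Rad21 at 4.5 hpf. At 22.5% and 17.2%, both Rad21 lists were there above their share of the whole list. Of the 10 hpf Rad21 list the other Rad21-rich windows held 24 of the first 100 and 185 of the first 1000, with 14.6% of the list.

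At 2.5 hpf, before the main activation of the genome, the windows held 64 of 2011 peaks, or 0.464 per Mb (0.357 to 0.592), against 0.540 (0.415 to 0.691) in the other Rad21-rich windows and 1.60 (1.53 to 1.67) in all other windows. The last value was carried by few windows, since 54 windows with more than 7 peaks each held 1136 of the 2011. The limit of 7 was the highest count in a chosen window, so none of the 54 could be a chosen one. The median window held 0 in the chosen windows and in all others. A 2.5 hpf peak was present in 41 of the 138 windows, against 42 of 117 and 510 of 1231 (40.2% of all windows). The window of chromosome 7 from 54 Mb, which had the lowest CTCF ratio, held 7 of the 64. Of the 64 peaks 1 overlapped a 10 hpf Rad21 peak (0.348% of all) while 0 overlapped a 4.5 hpf Rad21 peak (0.0995% of all) and 0 a CTCF peak (0.149% of all), where 0 of 64 allows a share of up to 5.60% (exact 95% interval). Among the 64, the highest enrichments given in the authors' list, which reaches 144-fold elsewhere, were 28.4-fold at chromosome 7, 37310094 to 37310794, and 26.2-fold at chromosome 20, 33091913 to 33092246, against a median of 5.11-fold over the 64. MACS2 called this list from paired-end libraries made with a different kit, against HOMER on single-end reads later, so stage and preparation cannot be told apart.

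The set of windows changed with the lists and limits used. With the Rad21 list shortened to the 14079 peaks that the CTCF list holds, 58 windows met it, which can only be windows of the 138. Under a changed rule, with the first 50% of both lists and 10 or more Rad21 peaks in place of 20, 155 windows were found, of which 87 were among the 138.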

How the data were processed

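Peak lists deposited by the authors were the data, 1 for each stage and antibody. Per the submitters' processing notes, reads were aligned with Bowtie2 2.2.1 to Zv9. Per the file headers, HOMER called the lists of 10 and 4.5 hpf with a false discovery rate threshold of 0.001 and required enrichment of 4-fold over input and over the surrounding 10000 bp. Rad21 and CTCF of 10 hpf were called over the same input, with at most 1 and 2 tags per position. The score that the authors deposited does not vary between peaks, so file order served as rank (median Spearman rho with the rank in the peak identifier, over chromosomes, of 0.97 for Rad21 at 10 hpf, 0.94 for CTCF and 0.85 for Rad21 at 4.5 hpf). Per the file headers, the 2.5 hpf list came from MACS2 2.1.0.20151222 on both libraries and inputs together and gives a fold enrichment (a ratio over modelled background) and a pileup signal. Pooling of libraries for the other lists is not stated. Total tags were 13260105 for Rad21 at 10 hpf, 28291282 for CTCF and 14255160 for Rad21 at 4.5 hpf, and a peak needed at least 11, 15 and 11 tags, per the file headers.

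Peak centres on chromosomes 1 to 25 were counted in windows of 1 Mb with pandas 2.3.3 in Python 3.11.15, after the counting had been checked on simulated lists. A chromosome's length was the largest peak end in the 4 lists. Intervals are exact, at 95%, from scipy 1.17.1. No test was run, because no value per library exists. Windows to name were those with most Rad21 peaks at 10 hpf (8), most at 4.5 hpf (5) and the lowest CTCF ratio (5), and peaks to name were the first 10 of Rad21 at 10 hpf, 5 of CTCF and 5 of Rad21 at 4.5 hpf. The members and the comparisons were chosen with earlier results of these data known. Alternatives were other window starts, thresholds, overlaps and list lengths. Genes were not assigned and sequence was not used here, since no annotation or genome on Zv9 was used.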

Additional observations from a re-analysis of the deposited data

How the results depend on the processing

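No paired analysis was possible because each stage and antibody has a single peak list. For the same reason no replicate could be left out. Of 49 recomputed values, 29 stayed within the interval of the reported value or, for the number of windows, within 1.5 times of it.

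The number of windows was 62 with 25 or more Rad21 peaks, 51 with a lower CTCF limit of 0.333 times Rad21 and 58 with the shortened Rad21 list. All 3 are fewer by construction. The ratio of 4.5 hpf Rad21 density to all other windows was 1.73 with windows starting 0.5 Mb later, 1.44 with the lower CTCF limit, 1.73 with the first 50% of the 4.5 hpf list and 1.74 with the shortened Rad21 list. It was 1.40 against other windows between 40% and 60% of the length, and it turned to 0.952 against the other Rad21-rich windows. The median place of Rad21 peaks was 43.9% with 25 or more Rad21 peaks, and that of CTCF peaks 29.0% with the lower CTCF limit. The share of Rad21 peaks at 4.5 hpf Rad21 was 12.8% with the lower CTCF limit and 16.4% with the shortened Rad21 list. Their share at CTCF was 12.1% with the lower CTCF limit and 13.4% with an overlap of at least 50% of the peak. The share with a neighbour within 10 kb was 46.4% with 25 or more Rad21 peaks and 45.4% with the lower CTCF limit. The share of CTCF peaks at Rad21 was 46.4%, 44.5% and 44.0% with 25 or more Rad21 peaks, the lower CTCF limit and the shortened Rad21 list. The cause of these shifts was not tested. The share of windows between 40% and 60% of the length was 47.5% to 53.5% under the alternatives run. The results on CTCF place and on position, the shortened list and the narrower comparisons were added after the data had been seen. The tag thresholds and the required 4-fold enrichment both limited which sites were listed. Sites under the tag thresholds were not detectable at this depth. HOMER counted 90217 putative CTCF peaks and listed 14079. For Rad21 at 10 hpf it counted 35851 and listed 18075. The part of each limit in these losses was not tested, nor was their part in the ratio of CTCF to Rad21 peaks.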
